A study of Mus musculus with 14 samples.

Results

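Genes that mark fibroblasts, together with the small proteoglycans that coat their collagen, were followed through bulk RNA-Seq of mouse esophagus. The 10 genes were the small leucine-rich proteoglycans Dcn, Lum, Bgn and Fmod, the growth factor receptors Pdgfra and Pdgfrb, the microfibril and elastic fiber genes Fbn1 and Eln, the fibroblast gene Pi16 and the matricellular gene Postn. They were taken by symbol from the 55291 gene symbols of the count tables, and all 10 were found. The 14 libraries came from 9 wild type C57BL/6 mice, and each library held the RNA of 1 layer of 1 mouse. Esophageal Epithelium was sequenced from 5 aged mice (O1, O2, O3, OF5 and OM8, 18 months or more) and 4 young mice (Y1, Y3, YF5 and YM4, 4 months or less). Esophageal Stroma came from 5 of the 9 mice, the aged O1, O2 and O3 and the young Y1 and Y3. No transgene, deletion or treatment is given for any of them. The epithelium is a mucosal sheet from which the muscle layer was pulled off with forceps, so that either layer can hold tissue of the other.

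Fibroblasts lay down the collagen, proteoglycans and elastic fibers of connective tissue. In the esophagus they lie in the lamina propria directly under the squamous epithelium, in the submucosa and between the muscle bundles. Small leucine-rich proteoglycans bind collagen fibrils and set their spacing, PDGFRα and PDGFRβ are receptor tyrosine kinases that receive PDGF ligands on fibroblasts and pericytes, and fibrillin microfibrils are the scaffold on which tropoelastin is deposited.

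The libraries did not stand on equal footing. Total counts were 16477424 to 21867101 in the epithelium of the 5 mice with numbered codes, 13257833 to 15644580 in their stroma, and 8217516 to 9399448 in the epithelium of the 4 mice with lettered codes (OF5, OM8, YF5 and YM4). Counts on protein-coding genes were only 1041386 to 1432509 in those 4 libraries, in which the ribosomal RNA locus took 63.9 to 73.9% of the counts, against 6619770 to 11051060 in the other 10. Levels are given as normalized counts, which are CPM values on the library size after TMM scaling over all 14 libraries. On that scale 3 counts were worth 0.0872 to 0.175 in the numbered libraries and 0.707 to 1.25 in the lettered ones. The labelled layers carried the matching markers. All 8 keratinocyte markers (Krt5, Krt14, Krt15, Krt4, Krt13, Krtdap, Trp63 and Cdh1) were higher in epithelium, with summed levels of 17104 to 54232 against 47.2 to 452 in stroma. All 8 skeletal muscle markers were lower, with sums of 15.5 to 1371 against 35232 to 65629. In bulk tissue, fewer fibroblasts and less RNA per fibroblast cannot be told apart.

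The first question was how high the fibroblast genes stood in the peeled epithelium relative to stroma. Of the 10 genes, 8 were lower in epithelium than in stroma and none was called higher, by edgeR's quasi-likelihood test on all 14 libraries with a Benjamini-Hochberg adjusted p under 0.05. Of all 16791 genes tested, 56.2% were called, 30.1% lower and 26.1% higher in epithelium. The median of the 10 log2 fold changes was -1.11, and that of all genes tested was -0.05. Fmod fell most, followed by Eln and Pi16. Fbn1, Pdgfrb, Dcn, Pdgfra and Bgn fell by similar steps, Lum was not called, and Postn pointed the other way without passing the test. For 4 of the 10 genes (Bgn, Fbn1, Eln and Pi16) every epithelial library lay below every stromal library, as did 16.9% of all genes tested. The lettered codes may mark another set of libraries, and in the 10 libraries of the 5 numbered mice alone the same test also called 8 of the 10 genes lower, Dcn with a log2 fold change of -0.83 and Bgn with -0.85.

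**Figure D1:**
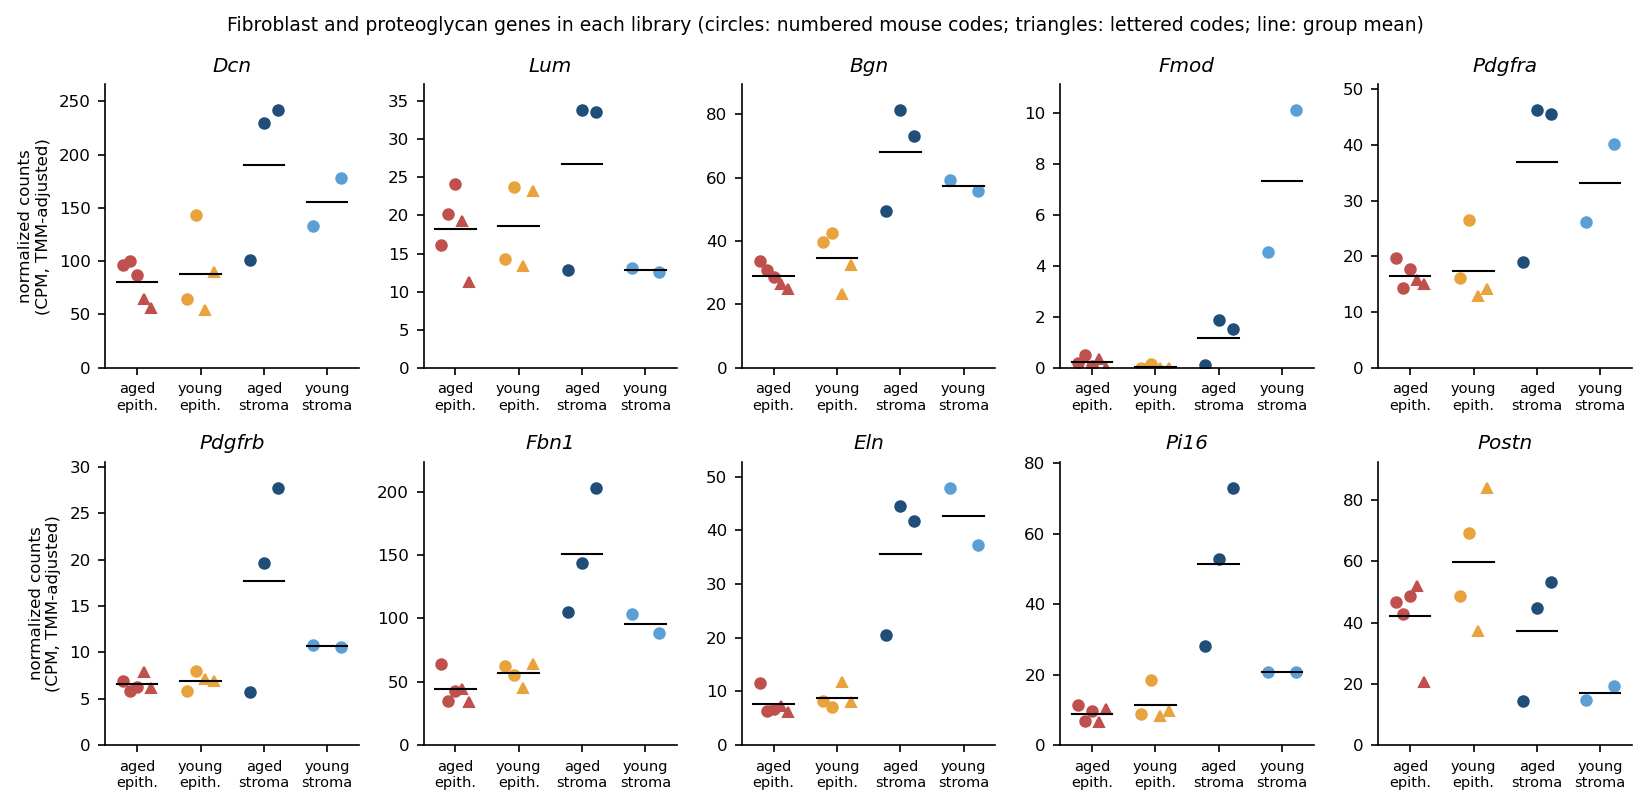
Normalized counts (CPM on the TMM-adjusted library size, linear axes from 0) of the 10 genes in each library, by age and layer. Points are libraries, circles from mice with numbered codes and triangles from mice with lettered codes, and lines are group means. Eln ran from 6.13 to 11.7 in epithelium and from 20.6 to 48.0 in stroma, while Lum and Postn overlapped between the layers.

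The small leucine-rich proteoglycans share a core of leucine-rich repeats, and Dcn and Lum are neighbors in the genome. In GRCm38 with the GENCODE M21 annotation, Dcn lies on chromosome 10 at 97479609 to 97518143 and Lum on chromosome 10 at 97565128 to 97572703, both on the plus strand and 47.0 kb apart. Dcn encodes decorin, which binds type I collagen. It had 101, 229 and 242 normalized counts in the stroma of O1, O2 and O3 and 133 and 178 in that of Y1 and Y3. In epithelium it ran from 54.6 to 143 with a median of 87.1, and the layers overlapped through O1 stroma and Y3 epithelium. The means were 84.0 ± 28.2 over the 9 epithelial and 177 ± 60.6 over the 5 stromal libraries (SD), giving a log2 fold change of -1.07 (SE 0.24, edgeR adjusted p = 0.000802).

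Lum encodes lumican, a keratan sulfate proteoglycan, and it did not follow Dcn. Its stromal levels were 12.8, 33.8 and 33.6 normalized counts in O1, O2 and O3 and 13.2 and 12.6 in Y1 and Y3. Its epithelial levels ran from 11.3 to 24.1 with a median of 19.3. Epithelium thus overlapped O1, Y1 and Y3 stroma and lay below O2 and O3 stroma. The log2 fold change of Lum was -0.20 (SE 0.26, 95% interval -0.72 to 0.32, edgeR adjusted p = 0.545), which leaves room for a fall or a small rise, and the sign turned without mouse O2 (0.00) and with mouse as a block over the 5 mice with both layers (0.04).

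Bgn, which encodes biglycan, lies on chromosome X at 73483602 to 73495933. It had 49.5, 81.2 and 73.3 normalized counts in O1, O2 and O3 stroma and 59.2 and 55.7 in Y1 and Y3 stroma. Epithelial levels ran from 23.3 to 42.6 with a median of 30.9. The layers did not overlap, and the log2 fold change was -1.01 (SE 0.17, edgeR adjusted p = 3.02e-05). The 250 bases before the RefSeq start of Bgn (GRCm38.p6, chrX:73483351-73483600, plus strand) are shown because Bgn was the proteoglycan with the smallest SD relative to its mean in both layers. GC made up 64.4% of the window. Capitals mark 3 matches to GGGCGG on the other strand (CCGCCC as printed), which begin 34, 10 and 6 bases before the start, the last pair overlapping each other. GGGCGG, searched on both strands, occurs in 32.7% of 32851 such windows.

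Bgn: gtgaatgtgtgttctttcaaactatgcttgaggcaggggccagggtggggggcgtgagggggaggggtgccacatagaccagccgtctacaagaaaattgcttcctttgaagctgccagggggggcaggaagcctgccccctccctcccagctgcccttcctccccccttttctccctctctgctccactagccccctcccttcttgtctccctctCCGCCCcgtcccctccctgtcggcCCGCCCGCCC

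Fmod encodes fibromodulin, a proteoglycan of tendon and other dense collagen. It lies on chromosome 1 at 134037254 to 134048277, where Prelp and Optc, other members of the family, are its neighbors. It was the rarest of the 10 genes, with 2, 46 and 40 counts in the stroma of O1, O2 and O3 and 88 and 257 counts in that of Y1 and Y3. The epithelial libraries held 0 to 16 counts, and 4 of the 9 held none. In normalized counts the stromal values were 0.117, 1.89 and 1.53 in aged mice and 4.54 and 10.1 in young mice. The log2 fold change between the layers was -4.40 (SE 0.81, edgeR adjusted p = 0.000109), and without mouse Y3, whose stroma held the most Fmod, it was -3.58 (edgeR adjusted p = 0.00327). O1 stroma, with 0.117, lay inside the epithelial range of 0 to 0.485. In the lettered libraries 0 counts allow a level of up to 0.707 to 1.25 normalized counts, so low levels of Fmod were not detectable there. The window before its RefSeq start (GRCm38.p6, chr1:134037004-134037253, plus strand), shown for contrast with that of Bgn, held no match on either strand to GGGCGG (present in 32.7% of windows) or to TATAAA (present in 12.4%).

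Fmod: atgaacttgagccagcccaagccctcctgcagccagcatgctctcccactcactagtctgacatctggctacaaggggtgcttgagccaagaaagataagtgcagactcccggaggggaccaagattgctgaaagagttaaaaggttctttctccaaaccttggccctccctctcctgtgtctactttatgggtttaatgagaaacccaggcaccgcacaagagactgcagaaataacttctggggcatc

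Of the receptors, Pdgfra (chromosome 5, 75152292 to 75198215) marks fibroblasts and Pdgfrb (chromosome 18, 61045150 to 61085061) is shared by fibroblasts and pericytes. Pdgfra had 19.0, 46.3 and 45.7 normalized counts in O1, O2 and O3 stroma and 26.3 and 40.2 in Y1 and Y3 stroma, against 12.9 to 26.5 with a median of 15.8 in epithelium. Pdgfrb had 5.72, 19.6 and 27.8 in aged stroma and 10.7 and 10.5 in young stroma, against 5.77 to 7.95 with a median of 6.86 in epithelium. Pdgfrb was thus nearly level across the 9 epithelial libraries (mean 6.74 ± 0.83, SD) and widely spread in stroma (14.9 ± 8.78, SD), where O1 was the lowest library of all 14. Both genes were lower in epithelium, Pdgfra by a log2 fold change of -1.05 (SE 0.21, edgeR adjusted p = 0.000238) and Pdgfrb by -1.15 (SE 0.27, edgeR adjusted p = 0.00113). Of the 4 genes for PDGF ligands, 3 were called lower in epithelium and none higher. Pdgfc, a ligand of PDGFRα, had a log2 fold change of -2.66 (1.30 ± 0.73 against 9.22 ± 4.03 normalized counts, edgeR adjusted p = 3.86e-06), and Pdgfa one of -1.44 (4.21 ± 1.49 against 11.7 ± 4.84, edgeR adjusted p = 0.000198).

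Among genes other than Fmod, Eln showed the widest gap between the layers, and other elastic fiber genes moved the same way. Fbn1 (chromosome 2, 125300594 to 125507993, minus strand) encodes fibrillin-1. It had 105, 144 and 203 normalized counts in aged stroma and 103 and 88.2 in young stroma, against 34.2 to 64.1 with a median of 45.0 in epithelium. Eln (chromosome 5, 134702593 to 134747323, minus strand) encodes tropoelastin. It had 20.6, 44.5 and 41.7 in aged stroma and 48.0 and 37.3 in young stroma, against 6.13 to 11.7 with a median of 7.24 in epithelium. Neither gene overlapped between the layers, with log2 fold changes of -1.37 for Fbn1 (SE 0.21, edgeR adjusted p = 1.18e-05) and -2.26 for Eln (SE 0.20, edgeR adjusted p = 9.4e-09). Genes annotated on the opposite strand within Fbn1 and Eln (Gm9913 and Gm30003) had at most 30 and 13 counts in any library, which could be shared with the genes named, since no strand setting is stated. Of the other 21 elastic fiber genes, 15 were called lower in epithelium and none higher, with a median log2 fold change of -1.27. Fbln5, which tethers elastin to microfibrils, fell to 1.61 ± 0.79 from 13.3 ± 5.65 normalized counts (log2 fold change -3.00, edgeR adjusted p = 2.23e-07), and the cross-linking enzyme gene Loxl1 fell to 6.93 ± 1.95 from 33.7 ± 11.5 (-2.26, edgeR adjusted p = 2.98e-08).

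Pi16 (chromosome 17, 29317680 to 29330593) encodes peptidase inhibitor 16 and marks fibroblasts of the adventitia and other outer connective tissue. It had 28.0, 53.0 and 73.2 normalized counts in aged stroma and 20.8 in each of the 2 young stromal libraries. In epithelium it ran from 6.55 to 18.5 with a median of 9.52, and the layers did not overlap. The log2 fold change was -1.95 (SE 0.29, edgeR adjusted p = 1.22e-05).

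Postn encodes periostin, a matricellular protein secreted by fibroblasts next to epithelia and in remodeling tissue. It lies on chromosome 3 at 54361109 to 54391037. Its stromal levels were 14.4, 44.7 and 53.1 normalized counts in O1, O2 and O3 and 14.6 and 19.3 in Y1 and Y3, and its epithelial levels ran from 20.7 to 84.1 with a median of 48.6. The lowest epithelial library, OM8, lay above 3 of the 5 stromal libraries and below O2 and O3. The mean was 49.998 ± 18.1 over the 9 epithelial and 29.2 ± 18.3 over the 5 stromal libraries (SD), giving a log2 fold change of 0.77 (SE 0.34, 95% interval 0.10 to 1.45) that did not pass the test (edgeR adjusted p = 0.0644). With mouse as a block over the 5 mice with both layers it was 1.04 and passed (edgeR adjusted p = 0.0383), and it also passed without mouse O2 (0.99, adjusted p = 0.0406), O3 (1.104, adjusted p = 0.0156) or OM8 (0.87, adjusted p = 0.0276). The window before a RefSeq start of Postn (GRCm38.p6, chr3:54360857-54361106, plus strand) is shown because only Postn had a log2 fold change above 0 between the layers in the main fit. Capitals mark a match to TATAAA that begins 26 bases before the start. TATAAA, searched on both strands, occurs in 12.4% of the 32851 windows. The window before the other Postn start in RefSeq held no match to it.

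Postn: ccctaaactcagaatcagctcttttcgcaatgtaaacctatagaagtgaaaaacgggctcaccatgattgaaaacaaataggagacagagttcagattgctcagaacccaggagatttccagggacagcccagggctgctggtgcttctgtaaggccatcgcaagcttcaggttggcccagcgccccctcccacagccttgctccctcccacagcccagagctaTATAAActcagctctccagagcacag

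The 5 mice with both layers allow the layers to be compared within each mouse. Dcn, Bgn, Fbn1, Eln and Pi16 were lower in the epithelium of all 5 mice, as were 26.2% of all genes tested. The log2 ratio of epithelium to stroma, with 0.5 counts added, ran for Eln from -2.80 to -2.41 in O2, O3, Y1 and Y3 and was -0.83 in O1. For Pi16 it was -1.30, -2.93 and -2.94 in O1, O2 and O3 and -1.25 and -0.18 in Y1 and Y3. The mice therefore differed in how far the layers lay apart. All 10 genes were lower in the epithelium of O2 and of O3 (medians -1.72 and -1.81), 8 of 10 in Y1 and in Y3 (medians -0.81 and -0.40), and 5 of 10 in O1 (median 0.00), where the median of all genes tested was 0.19. Postn was higher in the epithelium of O1, Y1 and Y3 by log2 ratios of 1.70, 1.74 and 1.84 and nearly equal in O2 and O3, at -0.06 and -0.12. Lum was higher in the epithelium of the same 3 mice by smaller log2 ratios, 0.325, 0.124 and 0.917. In O2 and O3 Lum was lower, at -0.747 and -0.478.

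**Figure D2:**
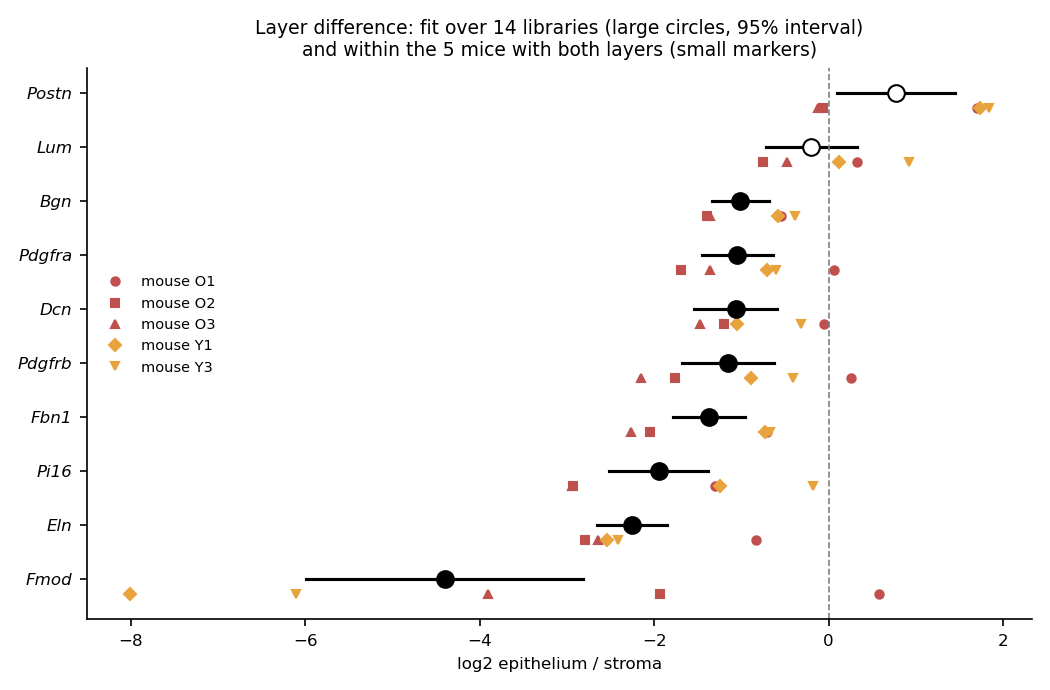
The log2 ratio of epithelium to stroma for each gene. Large circles and bars are the edgeR estimate over 14 libraries with its 95% interval, filled where the adjusted p is under 0.05, and small markers are the 5 mice with both layers, with 0.5 counts added. Genes from Bgn down to Fmod lie left of 0 in the fit, mouse O1 is the rightmost of the 5 mice for Dcn, Fmod, Pdgfra, Pdgfrb and Eln, and the far left points of Fmod (Y1 and Y3) rest on 0 and 4 epithelial counts.

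Set beside markers of other tissue components, most of these genes were only mildly lower in the peeled epithelium. Epithelial means as a share of stromal means were 47.6% for Dcn, 49.3% for Bgn, 47.8% for Pdgfra, 45.4% for Pdgfrb and 38.6% for Fbn1. They were 21.1% for Eln, 25.5% for Pi16 and 3.80% for Fmod, against 86.8% for Lum and 171% for Postn. The median over the 10 genes was 46.5%, near that of the 7 smooth muscle markers (54.2%) and above those of the 6 endothelial (29.2%) and 6 leukocyte markers (30.7%). The ranges of these lists overlapped, so the medians do not order the cell types. Single genes ran from 3.80 to 171% among the 10 and from 18.3 to 121.5% for smooth muscle. They ran from 13.3 to 60.5% for endothelium and from 5.63 to 85.3% for leukocytes. The 7 pericyte markers had a median of 42.8%, which is raised by Notch3 at 973%. The other pericyte markers ran from 16.5% (Abcc9) to 70.9% (Rgs5). Markers of the outer wall were depleted far more, with medians of 1.04% for skeletal muscle, 6.50% for Schwann cells, 3.15% for mesothelium and 0.240% for adipocytes. By the test, 3 of 7 smooth muscle, 5 of 6 endothelial, 3 of 4 leukocyte, 5 of 5 Schwann cell, 4 of 4 adipocyte and 3 of 3 mesothelial markers tested were called lower and none higher. Of 6 pericyte markers tested 4 were called lower, led by Abcc9 (-2.60) and Cspg4 (-2.40), and Notch3, which keratinocytes also express, was called higher (3.28). These shares compare levels relative to all RNA of each layer, and are not the part of fibroblast RNA kept on peeling. The scale matters to them where the lettered libraries are included. As shares of total counts over all libraries, the median over the 10 genes was 31.8% and Postn stood at 114%. With the numbered libraries alone both scales gave nearly the same shares. On TMM-scaled values and on total counts Dcn stood at 55.65% and 57.5%, and Bgn at 55.1% and 56.7%. Pdgfra stood at 53.2% and 54.3%, and Postn at 175% and 176%.

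**Figure D3:**
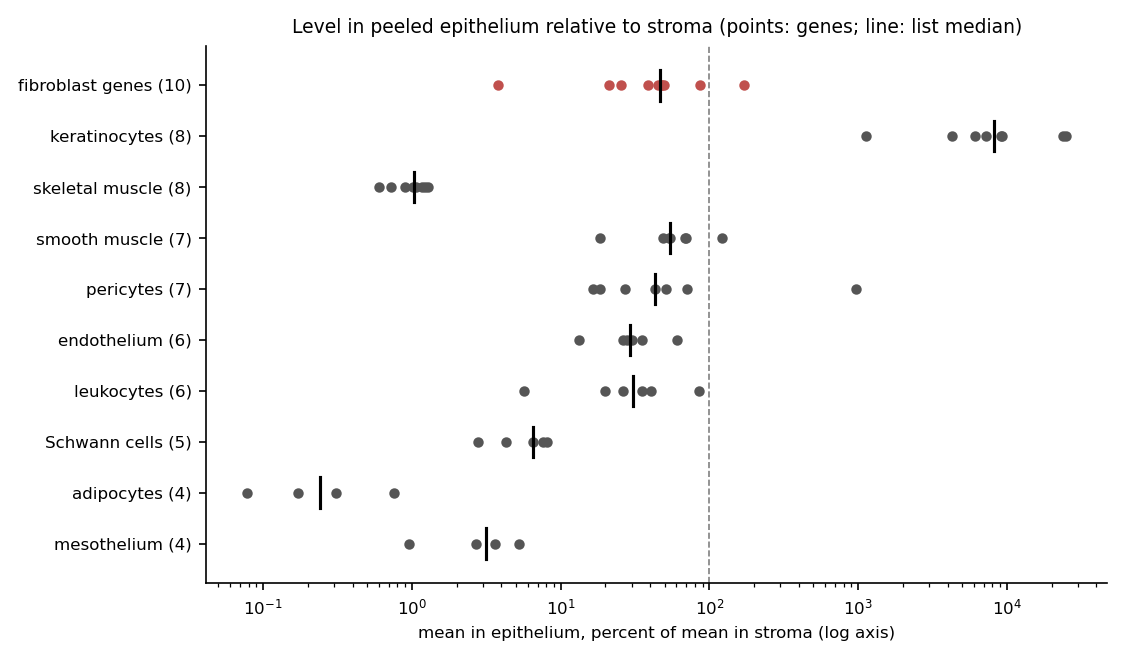
Mean level in epithelium as a percent of the mean in stroma, on a log axis, for the 10 genes (red) and for marker lists of other cell types (gray). Points are genes, the short lines are list medians and the dashed line marks equal levels. The 10 genes have a median of 46.5%, near smooth muscle (54.2%) and far from skeletal muscle (1.04%) and adipocytes (0.240%).

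The makeup of the fibroblast signal was then compared within each library, which needs no scaling between libraries, by giving each gene as counts per kb of exon relative to Dcn. These ratios are descriptions without a test. Lum stood at 39.6 to 71.8% of Dcn in epithelium and at 16.9 to 35.1% in stroma. Postn stood at 24.6 to 62.9% of Dcn in epithelium and at 7.28 to 14.8% in stroma. Neither gene overlapped between the layers, which held in the same direction for 25.0% of the 16790 genes tested other than Dcn. The gap for Lum was present within each of the 5 mice, with 39.7% against 30.4% in O1, 47.9% against 35.1% in O2, 66.0% against 33.1% in O3, 53.3% against 23.5% in Y1 and 39.6% against 16.9% in Y3. Pdgfra, Pdgfrb and Bgn kept much the same ratio in both layers. Pdgfra had medians of 11.9% in epithelium and 11.5% in stroma, Pdgfrb 8.23% and 8.58%, and Bgn 34.7% and 33.9%. Eln (medians 7.81% and 14.7%) and Pi16 (medians 10.8% and 21.2%) were lower relative to Dcn in epithelium, with ranges that overlapped.

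**Figure D4:**
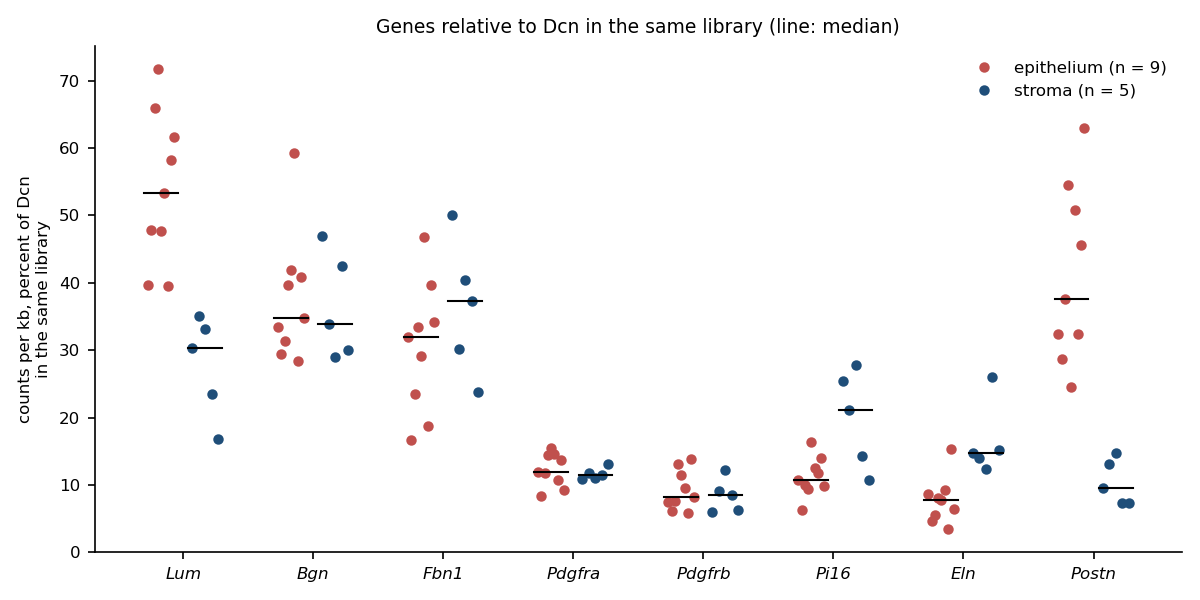
Counts per kb of exon of 8 genes as a percent of Dcn in the same library, on a linear axis, in epithelium (red, n = 9) and stroma (blue, n = 5). Points are libraries and lines are medians. Lum and Postn separate by layer without overlap (Postn 24.6 to 62.9% against 7.28 to 14.8%), and Pdgfra does not (8.32 to 15.5% against 10.96 to 13.2%).

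Per kb of exon, Dcn was the most abundant of the 10 genes in either layer, with means of 14.4 normalized counts per kb in epithelium and 30.3 in stroma. In epithelium Lum (7.52), Postn (5.75), Bgn (5.15) and Fbn1 (4.09) followed, then Pdgfra (1.69), Pi16 (1.57), Pdgfrb (1.23) and Eln (1.0), with Fmod (0.0419) last. In stroma the order was Fbn1 (10.6), Bgn (10.5), Lum (8.66), Pi16 (6.15), Eln (4.74), Pdgfra (3.54), Postn (3.36), Pdgfrb (2.71) and Fmod (1.101). In stroma Dcn stood apart from Fbn1 by more than the SD over libraries. From Fbn1 down to Pdgfrb each gene lay within the SD of its neighbor. The step from Pdgfrb to Fmod was about as large as the SD of Pdgfrb (1.60). In Y3 stroma the order was reversed, with Fmod at 3.06 and Pdgfrb at 1.92. The SDs do not use that all genes were measured in the same libraries. In epithelium the steps from Dcn to Lum, from Fbn1 to Pdgfra and from Eln to Fmod were larger than the SD, and the other steps were not. Postn stood near the top of the order in epithelium and near its foot in stroma.

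Related genes of connective tissue gave the setting for these changes. Of 13 other small leucine-rich proteoglycans 8 were tested, of which 4 were called lower in epithelium and 1 higher. Podn fell to 2.33 ± 1.89 from 12.7 ± 2.64 normalized counts (log2 fold change -2.49, edgeR adjusted p = 5.06e-06) and Ogn fell to 3.01 ± 1.43 from 16.9 ± 10.03 (-2.45, edgeR adjusted p = 3.04e-06). Tsku was the exception, with 18.2 ± 6.02 in epithelium and 1.70 ± 1.34 in stroma (3.37, edgeR adjusted p = 3.13e-06). Of 12 fibrillar and associated collagen genes 8 were called lower and 1, Col12a1, higher (20.3 ± 6.39 against 11.9 ± 6.24, log2 fold change 0.79, edgeR adjusted p = 0.0256). Col5a3 (-2.14) and Col14a1 (-1.51) fell most. Of 13 matricellular genes tested 9 were called lower, among them Thbs4 (-2.18) and Ccn2 (-2.06), and Tnc, which encodes tenascin-C, was the gene called higher (19.8 ± 5.32 against 7.57 ± 2.57, log2 fold change 1.39, edgeR adjusted p = 9.25e-05). Of 16 other fibroblast markers tested 9 were called lower and none higher, led by Prrx1 (-2.97) and Vim (-1.80). Over the 6 lists of related genes, 48 of 74 genes tested were called lower in epithelium and 3 (Tsku, Col12a1 and Tnc) higher.

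Age was compared within each layer. In epithelium none of the 9 genes tested was called between aged and young mice by edgeR or by DESeq2, and Fmod had too few counts to be tested. Of all 15859 genes tested by edgeR 0.0126% were called, and 3.21% had an unadjusted p under 0.05. All 9 log2 fold changes were below 0, as were 50.5% of those of all genes, with a median of -0.21, but for 6 of the 9 (Dcn, Lum, Pdgfra, Pdgfrb, Eln and Pi16) the sign turned under at least 1 alternative. Bgn and Fbn1 were the 2 genes with an unadjusted p under 0.05. Bgn had 33.8, 30.9, 28.6, 26.5 and 24.7 normalized counts in O1, O2, O3, OF5 and OM8 and 39.7, 42.6, 23.3 and 32.5 in Y1, Y3, YF5 and YM4. Young YF5 was thus the lowest of all 9 libraries, and the log2 fold change was -0.32 (SE 0.13, 95% interval -0.58 to -0.06, edgeR unadjusted p = 0.026, adjusted p = 1.0), or -0.41 within the numbered and -0.11 within the lettered codes. Fbn1 had 64.1, 34.9, 42.4, 44.4 and 34.2 in the same aged mice and 62.4, 55.5, 45.0 and 63.7 in the young mice. Aged O1 was the highest library, and the log2 fold change was -0.40 (SE 0.18, 95% interval -0.75 to -0.06, edgeR unadjusted p = 0.036, adjusted p = 1.0), or -0.33 and -0.45 within the numbered and lettered codes. Among the collagens, Col3a1 had 129 ± 23.1 normalized counts in aged and 203 ± 21.8 in young epithelium (log2 fold change -0.70, edgeR adjusted p = 0.180), and none of the 73 genes tested over the 6 related lists was called (edgeR unadjusted p under 0.05 for 7).

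In stroma none of the 10 genes was called by age (edgeR and DESeq2), where 3.64% of 21323 genes tested had an unadjusted p under 0.05 and 0% an adjusted one by edgeR, while DESeq2 called 9. Log2 fold changes were above 0 for 8 of the 10 genes, and below 0 for 50.9% of all genes, with a median of 0.47 for the 10 against -0.01 for all. Pi16, Fmod, Lum and Postn had an unadjusted p under 0.05. Pi16 was 1.30 higher on the log2 scale in aged stroma (SE 0.39, 95% interval 0.54 to 2.06, edgeR unadjusted p = 0.00748, adjusted p = 1.0), and all 3 aged libraries lay above both young ones. Fmod was lower in aged stroma (log2 fold change -2.62, SE 0.96, 95% interval -4.49 to -0.74, edgeR unadjusted p = 0.0215, adjusted p = 1.0), with 2 to 46 counts in aged and 88 and 257 in young libraries. Pi16, Fmod and Fbn1 (0.65, SE 0.30) did not overlap by age, which was also the case for 20.6% of all genes tested. Lum (1.06, SE 0.43) and Postn (1.14, SE 0.49) were high in O2 and O3 only, with O1 at the level of the young mice. Of the 79 related genes tested none was called (edgeR unadjusted p under 0.05 for 3), and the median over the 15 matricellular genes was 0.68. With so few libraries the test can call little. In simulated data it recovered 0 of 84 changes of 1 on the log2 scale and 18 of 87 changes of 2.

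The 3 aged stromal libraries were not alike. O1 stroma was the lowest of the 5 stromal libraries for 7 of the 10 genes (Dcn, Bgn, Fmod, Pdgfra, Pdgfrb, Eln and Postn), while O2 was among the highest 2 for 9 genes and O3 for 8. Summed over the 10 genes, the levels were 355, 698 and 795 normalized counts in O1, O2 and O3 and 434 and 473 in Y1 and Y3. Markers of other cell types moved as well. The 7 smooth muscle markers summed to 1233, 2441 and 1024 in O1, O2 and O3 stroma and to 407 and 759 in Y1 and Y3 stroma, with an unadjusted p under 0.05 for 5 of 7 and none called. The 8 keratinocyte markers summed to 56.1, 452 and 254 in aged and 75.5 and 47.2 in young stroma, so that O2 and O3, which led in fibroblast genes, also held the most keratinocyte RNA. The 5 Schwann cell markers summed to 12.6, 32.0 and 43.0 in aged and 77.4 and 61.9 in young stroma, and the 4 mesothelial markers to 6.83, 10.2 and 38.4 in aged and 54.1 and 58.0 in young stroma. None of the genes in these 4 lists was at 0 in a stromal library. The 8 skeletal muscle markers, which made up the largest of these sums, ran in the opposite order to the 10 genes, with 65629, 44409 and 35232 in O1, O2 and O3 and 57096 and 45761 in Y1 and Y3. The 6 endothelial markers summed to 40.9, 81.6 and 136.7 in aged and 69.9 and 91.7 in young stroma, and the 6 leukocyte markers to 21.1, 47.8 and 106.1 in aged and 31.2 and 42.3 in young stroma, both lowest in O1 and highest in O3. The 7 pericyte markers summed to 129.7 to 214.3 and the 4 adipocyte markers to 51.7 to 271.5 over the 5 stromal libraries. The part of these tissue differences in the values of Pi16, Fmod, Lum and Postn was not tested.

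Whether age acted differently in the layers was asked with an interaction term for age and layer over the 10 libraries of the 5 mice. None of the 10 genes was called by edgeR or by DESeq2, and 4.30% of 22771 genes tested had an unadjusted p under 0.05 and 0% an adjusted one by edgeR, while DESeq2 called 50. Pi16 had the smallest p of the 10, with a log2 change by age in epithelium minus that in stroma of -1.85 (SE 0.58, 95% interval -2.99 to -0.72, edgeR unadjusted p = 0.00832, adjusted p = 1.0). In the epithelium of these mice Pi16 had 11.4, 6.94 and 9.52 normalized counts in O1, O2 and O3 and 8.75 and 18.5 in Y1 and Y3, against 51.4 ± 22.6 in aged and 20.8 ± 0.033 in young stroma (SD, n = 3 and 2). Postn pointed the same way (-1.50, SE 0.61, 95% interval -2.68 to -0.31, edgeR unadjusted p = 0.031, adjusted p = 1.0). Postn had 46.7, 42.8 and 48.8 in the epithelium of O1, O2 and O3 and 48.6 and 69.1 in that of Y1 and Y3, against 37.4 ± 20.4 in aged and 16.9 ± 3.36 in young stroma (SD, n = 3 and 2). Fmod pointed the opposite way (4.53, SE 1.74, edgeR unadjusted p = 0.0245, adjusted p = 1.0), on 0 to 16 counts in epithelium. When no filter on low counts was applied, the test called Pi16 (-2.10, edgeR adjusted p = 0.00133) and Postn (-1.76, edgeR adjusted p = 0.00521). That setting called 98 of 49457 genes, and the other 10 of 11 alternatives called none of the 10 genes. In simulated data the main test recovered 1 of 92 interactions of 2 on the log2 scale.

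**Figure D5:**
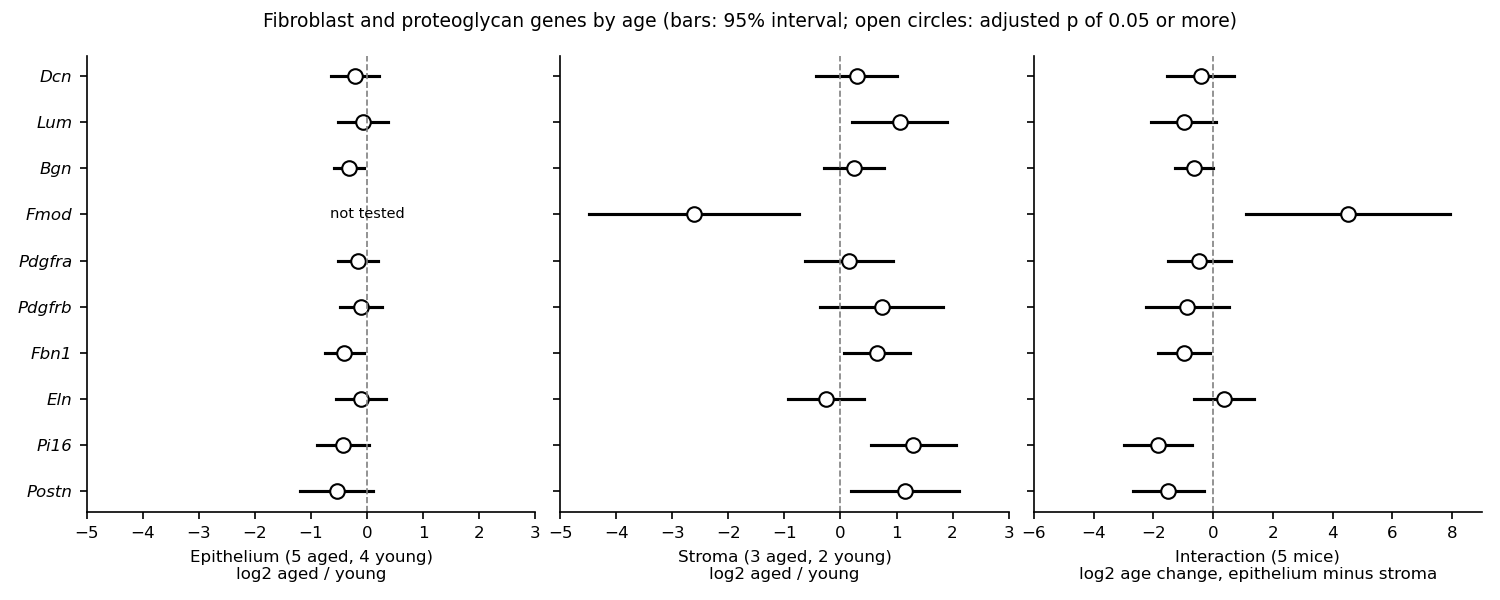
Log2 fold change by age for each gene in epithelium (left) and stroma (middle), and the difference of the 2 changes in the 5 mice with both layers (right). Circles are edgeR estimates, bars are normal 95% intervals, and open circles mark an adjusted p of 0.05 or more. The bars are too narrow where libraries are few. Those of Fbn1 in stroma and in the interaction clear 0 at edgeR unadjusted p values of 0.0588 and 0.0514. No gene was called in any panel, the epithelial estimates lie between -0.54 and -0.07, and the stromal ones between -2.62 (Fmod) and 1.30 (Pi16).

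The genes were also set beside each other across libraries. Log2 normalized counts were centered within 3 sets of libraries (stroma, numbered epithelium and lettered epithelium), and Pearson's r was taken over the 14 libraries as a description. The points share library depth and the peeling of each sheet, and neither was removed. Age and the differences in tissue makeup between libraries of a set were not removed either. Over the 45 pairs the median r was 0.64, and the pair most alike was Lum and Postn (r = 0.90), followed by Pdgfra and Pdgfrb (0.83) and Dcn and Pdgfra (0.82). The median is not set against that of other gene pairs. Fmod stood apart from the other 9 genes with a median r of 0.13, and Eln with 0.34. Fmod held only 0 to 16 counts in epithelium. Its r values, here and with its nearest genes, thus rest partly on the 0.5 counts added and on depth. Among 6847 genes of sufficient level, the nearest to Dcn were C1s1 (0.91), Prelp (0.91) and Serpinf1 (0.90), and the nearest to Pdgfra were Cd34 (0.91), Creb5 (0.90) and Scara5 (0.88). Bgn ran closest to basement membrane genes, namely Nid1 (0.88), Lamc1 (0.87) and Col4a1 (0.86). The nearest to Fbn1 were Bmp1 (0.87), Tnxb (0.86) and Map1b (0.84), and the nearest to Pi16 were Tek (0.87), Axl (0.87) and Usp14 (0.81). Postn was nearest to Gsn (0.96), Cd81 (0.95) and Rbm7 (0.95), Lum to Slu7 (0.91), Postn itself and Scara3 (0.89), Pdgfrb to Rara, Serpinf1 and Sema3e (each 0.95), Eln to Zfp236 (0.91), Creb3l2 (0.86) and Gcn1 (0.84), and Fmod to Apoc1 (0.78), Zfp185 (0.77) and Abcc3 (0.77).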

How the data were processed

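The authors aligned reads to GRCm38.p6 (GENCODE) with Rsubread, counted them with featureCounts, and deposited whole-number read counts per gene symbol without normalization. Whether strand was used, and how reads with several matches were handled, is not given in the sources used here. Libraries were poly(A)-enriched, yet the ribosomal RNA locus took 63.9 to 73.9% of the counts in the lettered ones. Depth ran from 8217516 to 21867101 counts in total. The precision of each value follows the counts on protein-coding genes (1041386 to 11051060) more closely.

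Tests used edgeR 4.0.16 under R 4.3.3 (TMM, filterByExpr at a minimum count of 10, robust glmQLFit and glmQLFTest) over all genes, with Benjamini-Hochberg adjustment at 0.05. Age in epithelium was fitted with the form of the mouse code (numbered or lettered) as a covariate, and the other comparisons without one. SE is the size of the log2 fold change divided by the square root of F, and 95% intervals are normal ones. Such intervals are too narrow where libraries are few. For Fbn1 by age in stroma the interval was 0.05 to 1.25, clear of 0, at an edgeR unadjusted p of 0.0588. Within a group each library is a separate mouse. Epithelium and stroma pair by mouse in the labels (correlation of deviations from group means 0.05 to 0.09). Exon lengths and positions came from GENCODE M21. RefSeq windows (GRCm38.p6) were matched for 6 of the 10 genes, not for Dcn, Lum, Pdgfrb and Eln, and were searched on both strands for TATAAA, then for GGGCGG, then for GGAATG, then for CCAAT. Those of Fbn1 and Pi16 lie in exons of the gene and are not shown.

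The genes, lists and tests were chosen with earlier results of these data known. Named were the 10 genes, at most 2 called genes per direction and list with the largest log2 fold change at an average log2 CPM of at least 1 (with none called, the most abundant), and for each of the 10 the 3 genes most alike at an average log2 CPM of at least 3. Alternatives were DESeq2 1.42.0, other filters, upper quartile normalization, genes left out, other covariates, subsets, blocks, and each mouse left out in turn. The procedure was tested on simulated data. Of changes of 1 and of 2 on the log2 scale, it recovered 35 of 96 and 77 of 93 between the layers. By age it recovered 51 of 91 and 78 of 87 in epithelium but 0 of 84 and 18 of 87 in stroma. In the interaction it recovered 0 of 93 and 1 of 92. An absence of calls in stroma by age or in the interaction therefore says little. Few genes were changed in each simulation, whereas 56.2% of genes tested were called between the layers in these data. The simulated recovery between the layers thus does not give the power of that test here. Genes left unchanged were called as well. These false calls were 9 between the layers, 13 by age in epithelium, 1 by age in stroma and 0 in the interaction.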

Additional observations from a re-analysis of the deposited data

Results flagged for a closer look

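Of 40 groups of 4 to 9 libraries examined (10 genes in epithelium, stroma, aged epithelium and young epithelium), 4 held a library far from the others, where chance gives about 1 in 20 groups. Y1 epithelium was the lowest epithelial library for Fmod, at a log2 normalized count of -5.82 with the next at -3.27. The same value of -5.82 stood apart among the 4 young epithelial libraries, where the next was -2.76. Both rest on 0 counts of Fmod with 0.5 added in a deep library, set beside 0 counts with 0.5 added in shallow ones. O1 epithelium was the highest aged epithelial library for Eln, at a log2 normalized count of 3.54 with the next at 2.89. OM8 epithelium was the lowest aged epithelial library for Postn, at 4.38 with the next at 5.42, and without mouse OM8 Postn passed the test between the layers (log2 fold change 0.87, edgeR adjusted p = 0.0276).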

How the results depend on the processing

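The call and direction of the 7 genes lower in epithelium other than Fmod held in all 18 alternatives, and those of Fmod in the 15 that tested it, although its log2 fold change moved from -4.40 to -3.58 without Y3 and -3.79 with mouse as a block. Postn was called higher in epithelium with no filter on counts (0.95, adjusted p = 0.0295), with mouse as a replicate block (1.04, adjusted p = 0.0383) and without O2, O3 or OM8, and ran from 0.54 to 1.104 with mice left out in turn. Lum turned to 0.036 with the block and 0.004 without O2. With at least 10 counts in every library 4316 genes were called between the layers, since fewer were tested. The block changed no other call of the 10 genes. The median of all genes moved from -0.05 to -0.38 with DESeq2, -0.56 with no filter and 0.14 with the block.

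By age in epithelium the genes called were 28 with DESeq2, 36 with no filter, 0 with no covariate, 4 in numbered and 1 in lettered codes, 5 with mouse number as a block and 0 to 3 with mice left out. In stroma they were 9 with DESeq2, 26 with no filter, 14 with the number block and 0 to 13 with mice left out (13 without Y1, 7 without Y3). In the interaction they were 50 with DESeq2 and 98 with no filter, of which 2 (Pi16 and Postn) were among the 10 genes. Signs turned in epithelium with the number block for Dcn (0.035), Lum (0.196), Pdgfrb (0.000) and Eln (0.025), in numbered codes for Lum (0.066) and Eln (0.106), and in lettered codes for Pdgfra (0.212) and Pdgfrb (0.020). Without Y3 they turned for Dcn (0.088), Lum (0.106), Pdgfra (0.132), Pdgfrb (0.063) and Pi16 (0.005), for Lum also without OM8 (0.062) or YM4 (0.091), and for Eln without YF5 (0.005). In stroma Pdgfra turned with the number block (-0.155) and without O2 (-0.074), O3 (-0.053) or Y1 (-0.137), and Eln without O1 (0.019). The interaction of Eln turned without O1 (-0.348). The cause of these changes was not tested. Mouse numbers shared by aged and young mice name different animals, and their deviations correlated at -0.41 to -0.04 in epithelium and 0.02 to 0.03 in stroma. Depth limits the lettered libraries most, where 3 counts were worth 0.707 to 1.25 normalized counts.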
